A study of Mus musculus with 4 samples.

Results

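Fzd3 encodes Frizzled-3, a multi-pass membrane receptor for Wnt proteins, and the results below describe where the RNA-binding protein IMP2 touched its messenger RNA in the developing mouse brain. The gene was taken by its symbol from a single list of IMP2 clusters, which are places where sequenced fragments of bound RNA pile up. It held 27 of the 1828 distinct clusters of that list (1.48%). The gene was chosen by its number of clusters, the second highest of 761 listed genes, with their heights in view. Both are therefore given as descriptions, with no test.

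The clusters came from HITS-CLIP, in which ultraviolet light (254 nm) joins proteins to RNA, an antibody pulls down the protein and the attached RNA fragments are sequenced. The material was brain of Swiss Webster mouse embryos at E14 (embryonic day 14), with no genetic change or treatment named, and 4 libraries were made with antibodies to IMP2. Of these, 2 have R and 2 have M in their titles, letters that the labels do not explain, and the number of brains behind each library is not given. All values are those of the one list for the whole series, so they carry no replicate error, the R and M libraries could not be compared, and no control immunoprecipitation was analysed here.

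Frizzled receptors bind Wnt ligands outside the cell and signal inside it through Dishevelled proteins. Frizzled-3 is best known for the planar cell polarity branch of this pathway, in which it acts with the cadherin Celsr3 and the membrane protein Vangl2 rather than through beta-catenin. In mice that lack Fzd3, major forebrain tracts fail to form, and spinal commissural axons lose their turn towards the head along a Wnt gradient. IMP2, encoded by Igf2bp2, belongs to a family of proteins that bind messenger RNAs and influence their transport, stability and translation.

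The deposited Fzd3 transcript was the RefSeq accession NM_021458, on the minus strand of chromosome 14 at 65811278 to 65881300 (mm9). Its 3' UTR, the part of the transcript after the stop codon, was a single interval of 10278 bases at 65811278 to 65821555. Among the 729 listed genes with a 3' UTR interval, only Slc8a1 and Strbp had a longer one, and the median length was 1998 bases. None of the 27 clusters was shared with another gene symbol of the list, and all lay on the strand of the gene. No other symbol starting with Fzd was in the list.

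IMP2 clusters on Fzd3 lay mainly in the 3' UTR. Of the 27, 25 had their midpoint there (92.6%, exact Clopper-Pearson 95% interval 75.7 to 99.1, counting error only), beside 94.1% of all clusters of the list. The remaining 2 lay in coding sequence (7.41%, beside 5.42% of the list) and none in the 5' UTR. The interval around the share of Fzd3 includes that of the whole list, which itself counts the Fzd3 clusters. The Fzd3 clusters share their gene and libraries and are not independent, so the interval is a description and no test.

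The 25 clusters of the 3' UTR covered 1945 of its bases (18.9%). The median coverage over the 729 genes was 4.70%, and Fzd3 ranked 86 of them by this share. By the number of covered bases, which does not account for the length of the 3' UTR, only 3 of these genes stood above Fzd3. The first cluster began 110 bases into the 3' UTR and the last ended 520 bases before its end. The clusters thus reached almost from end to end, but not evenly. With the 3' UTR divided into 10 equal parts, the counts from the 5' end were 4, 5, 2, 3, 1, 2, 4, 0, 2 and 2. More clusters lay near the start than near the end, with a mean midpoint 40.5% and a median midpoint 34.8% of the way along. With only those clusters of the 3' UTR counted that were taller than the median of the list, coverage was 12.1% and the mean midpoint 49.8%.

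**Figure D1:**
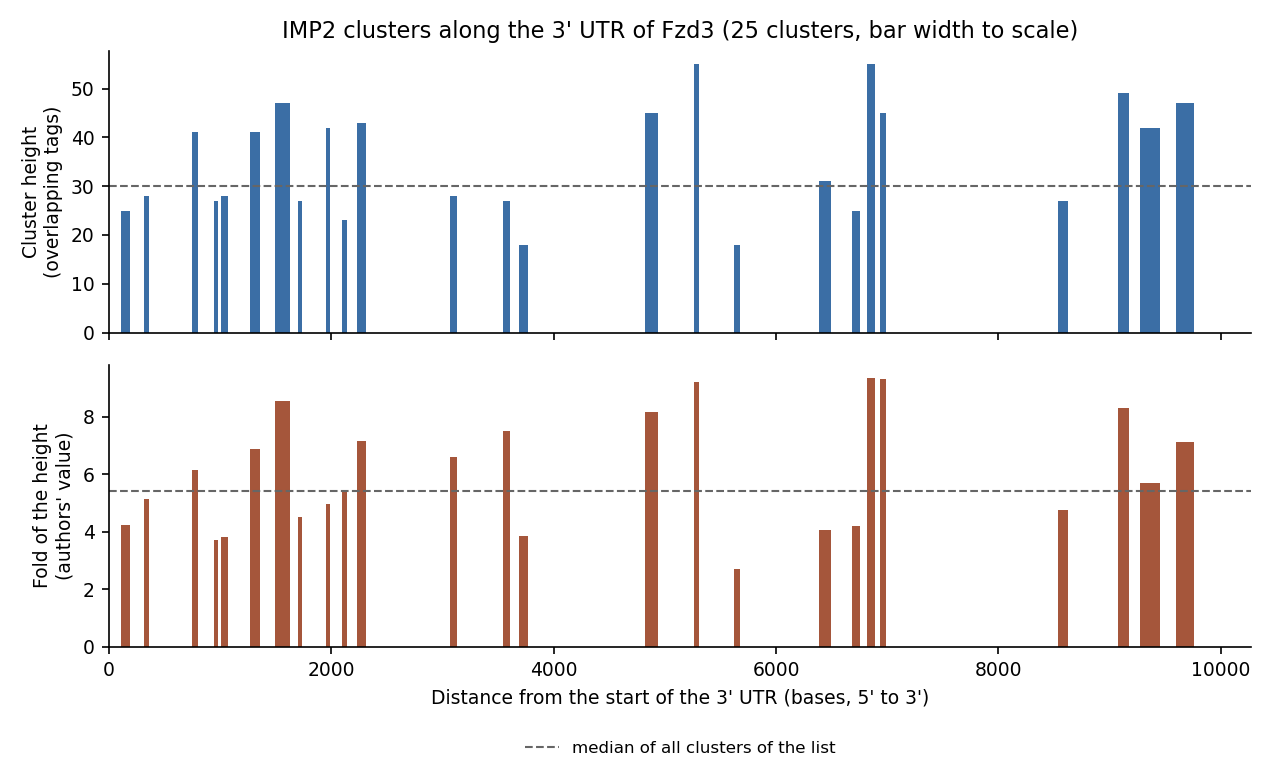
Each bar is 1 of the 25 clusters in the 3' UTR of Fzd3, drawn at its distance from the start of the 3' UTR (in bases) and at its true width; the upper panel gives the cluster height (overlapping tags) and the lower panel the authors' fold of that height. Tall clusters of height 41 to 55 and clusters of height 18 to 31 both occur near the start, in the middle and towards the end. The clusters at the 3' end, of height 49, 42 and 47, are all tall. No cluster lies in the 1545 bases before the last group of 4.

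The first 3000 bases after the stop codon held 11 clusters, the highest density of the 3' UTR with 3.67 per kilobase. The 3' UTR is described in 3 stretches (to 3000 bases, 3000 to 6500 and 6500 to 10278), with limits chosen after the positions were seen. From 5' to 3', the heights in the first were 25, 28, 41, 27, 28, 41, 47, 27, 42, 23 and 43. Height is taken to be the most tags that overlap at any point of a cluster, and the median over the whole list was 30. Low and tall clusters were mixed along this stretch, and none reached 50. The tallest of them, of height 47 and fold 8.56, lay at 65819927 to 65820062 and was 136 bases wide. These 11 clusters were mostly narrow, with a median width of 49 bases, and covered 23.1% of the stretch.

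The middle stretch held 7 clusters, of heights 28, 27, 18, 45, 55, 18 and 31 from 5' to 3'. It contained both extremes of the gene: the cluster at 65816247 to 65816296 reached 55, and 2 clusters stood at 18, the lowest height in the list. The cluster of height 55 was only 50 bases wide and had a fold of 9.22. Between the neighbouring clusters of height 18 and 45, 1051 bases held no cluster.

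The last stretch also held 7 clusters, of heights 25, 55, 45, 27, 49, 42 and 47. They were the tallest group, with a median height of 45 against 28 in both other stretches. The second cluster of height 55 lay here, at 65814666 to 65814736, with a fold of 9.34, the highest of the gene. Its downstream neighbour at 65814567 to 65814615, 50 bases away, had a height of 45 and a fold of 9.33. After this pair came the longest empty part of the 3' UTR, 1545 bases (15.0% of its length).

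The 4 clusters beyond that empty part were broad. Their widths were 91, 100, 183 and 157 bases, and their heights 27, 49, 42 and 47. The widest cluster of the gene lay at 65812100 to 65812282 and the last one at 65811798 to 65811954. Over the 25 clusters, width and distance from the stop codon had a Pearson correlation of 0.55 and a Spearman correlation of 0.49. Height and distance had 0.32 on both measures. These are descriptions of clusters on 1 transcript, which share their libraries and their gene.

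The pair in coding sequence lay close together in a single deposited coding interval of 1018 bases, at 65853751 to 65854768. The upstream cluster, at 65854424 to 65854475, had a height of 19 and a fold of 3.35. The downstream one, at 65854279 to 65854330, had a height of 38 and a fold of 6.15. Each was 52 bases wide, and 93 bases lay between them. Counted from the 5' end of the interval, they covered bases 294 to 345 and 439 to 490. The upstream cluster was lower than all but 2 of the other clusters of the gene, while the downstream one was taller than 72.2% of the clusters of the list.

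The many clusters of Fzd3 did not include the tallest ones of the list. Over its 27 clusters the height ran from 18 to 55 with a median of 31 (interquartile range 27 to 44), beside a list median of 30 (24 to 39). The number taller than the list median was 14 (51.9%), and 46.9% of all clusters were. By the highest cluster of each gene Fzd3 ranked 67 of 761, and 7.17% of all clusters were taller than its maximum of 55. The sum of its cluster heights, 941, was exceeded by 3 genes, Dcx, Sox11 and Mtap1b.

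The heights fell into an upper and a lower set with little between them. There were 12 clusters of height 41 to 55, 13 of height 18 to 28, and only those of height 31 and 38 in between. In the list as a whole, 23.4% of clusters had a height of 40 or more and 28.1% a height of 30 to 39, against 44.4% and 7.41% of the Fzd3 clusters. These limits were chosen after the heights were seen, and the difference was not tested. The taller clusters were spread over the transcript, with 5 in the first stretch, 2 in the middle and 5 in the last. They had a median width of 87 bases and a median fold of 7.65, the lower ones 59 bases and 4.22.

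The authors' fold followed the height broadly, with some clusters far apart on the 2 scales. The fold is a ratio of the height to a reference level that the file does not define. Over the 27 clusters it ran from 2.69 to 9.34 with a median of 5.68, beside 5.4 for the list. Above the list median stood 15 clusters (55.6%, beside 49.9% of the list). Of the 12 tall clusters, 11 were among them, the exception being the cluster of height 42 and fold 4.97 at 65819565 to 65819607. Of the 13 low ones, 3 were, among them that at 65817951 to 65818007 with a height of 27 and a fold of 7.5. Height and fold had a Pearson correlation of 0.85 and a Spearman correlation of 0.82 over the 27 clusters, beside 0.49 and 0.59 over the list. The fold is computed from the height, so the measures are not independent.

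The listed transcripts nearest to Fzd3 in 3' UTR length carried fewer clusters. Fzd3 was chosen for its high number, so the direction of this difference was set by that choice. The next shorter ones include those of Slc1a2, a glutamate transporter gene (6 clusters in 9250 bases), Zfp871, a zinc finger gene (4 in 8855), the kinase gene Taok1 (5 in 8705) and Csrnp3 (3 in 8523). The longer ones are those of Strbp, an RNA-binding protein gene (2 in 14162 bases), and the sodium-calcium exchanger gene Slc8a1 (2 in 15586). These 6 genes held between 2 and 6 clusters each, with 0.128 to 0.649 clusters per kilobase of 3' UTR, beside 2.43 for Fzd3. Their coverage was at most 3.30%. Of all 13 other listed genes with a 3' UTR over 8000 bases, the highest number was 12, in Cbx5, a heterochromatin protein gene. The counts thus differed among long 3' UTRs, while the level of each messenger RNA was not measured here. The part of transcript level in these counts was not tested, and in whole brain a transcript present in fewer cells cannot be told apart from one with fewer copies per cell.

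**Figure D2:**
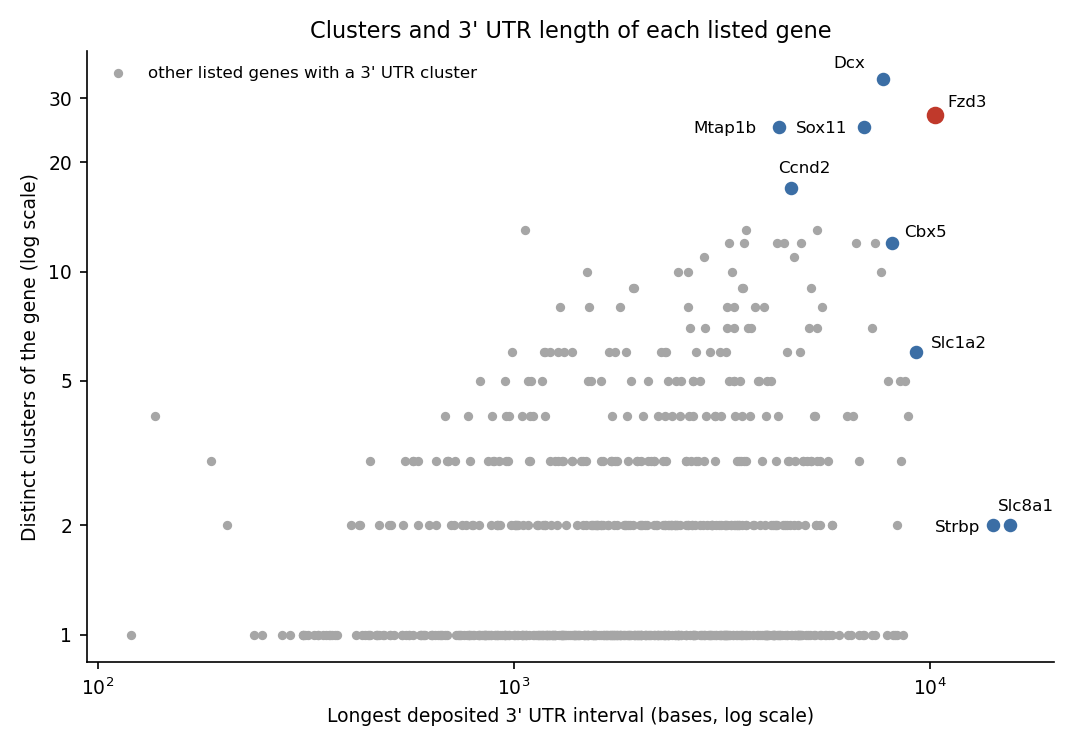
Each point is 1 listed gene with a 3' UTR interval; the horizontal axis is the length of its longest deposited 3' UTR interval (bases, log scale) and the vertical axis its number of distinct clusters (log scale). Fzd3 (red) has 27 clusters at 10278 bases, where the next longer genes, Strbp and Slc8a1, have 2 each and Slc1a2 at 9250 bases has 6.

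Per length, Fzd3 had fewer clusters than the 4 genes nearest to it in number. Dcx, the microtubule-associated doublecortin of migrating neurons, was the single gene with more clusters (34) and had 4.41 per kilobase of 3' UTR. Mtap1b, the microtubule-associated protein MAP1B, and Sox11, a transcription factor of newborn neurons, had 25 each. They had 4.15 and 3.60 per kilobase. Below them followed Ccnd2, a cyclin gene of progenitors, with 17 clusters and 3.67 per kilobase. Of the 20 genes with at least 10 clusters in the 3' UTR, Fzd3 ranked 15 on this measure, just above Xpr1, a phosphate exporter gene (2.43, 13 clusters), and above Cbx5 (1.48, 12 clusters). Among all 729 genes Fzd3 ranked 111 by clusters per kilobase, above the median of 0.861, and short 3' UTRs with few clusters take many of the higher ranks.

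The clusters of Fzd3 also stood farther apart than those of Dcx, Sox11 and Mtap1b. The median gap between neighbours in its 3' UTR was 171 bases (24 gaps, interquartile range 92.5 to 400, range 26 to 1545). It was 55 in Dcx, 61 in Sox11 and 47 in Mtap1b. Fzd3 ranked 5 of the 20 genes by this median, behind Nfib (259), the RNA-binding protein gene Celf2 (242), the adhesion gene Cxadr (233) and the kinesin gene Kif1b (204). Only 2 of 24 gaps in Fzd3 were of at most 50 bases (8.33%), where the 20 genes with at least 10 clusters in the 3' UTR had 82 of 269 (30.5%). In Dcx it was 16 of 33, in Sox11 10 of 24 and in Mtap1b 9 of 17, while Mtap2, the dendritic microtubule protein gene, had 0 of 11. Joining clusters at most 50 bases apart left Fzd3 with 25 clusters, more than any other gene of the list, as Dcx then had 18. The longest gaps, 4 of over 500 bases, together took up 39.5% of the 3' UTR. These gaps were not tested against chance.

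**Figure D3:**
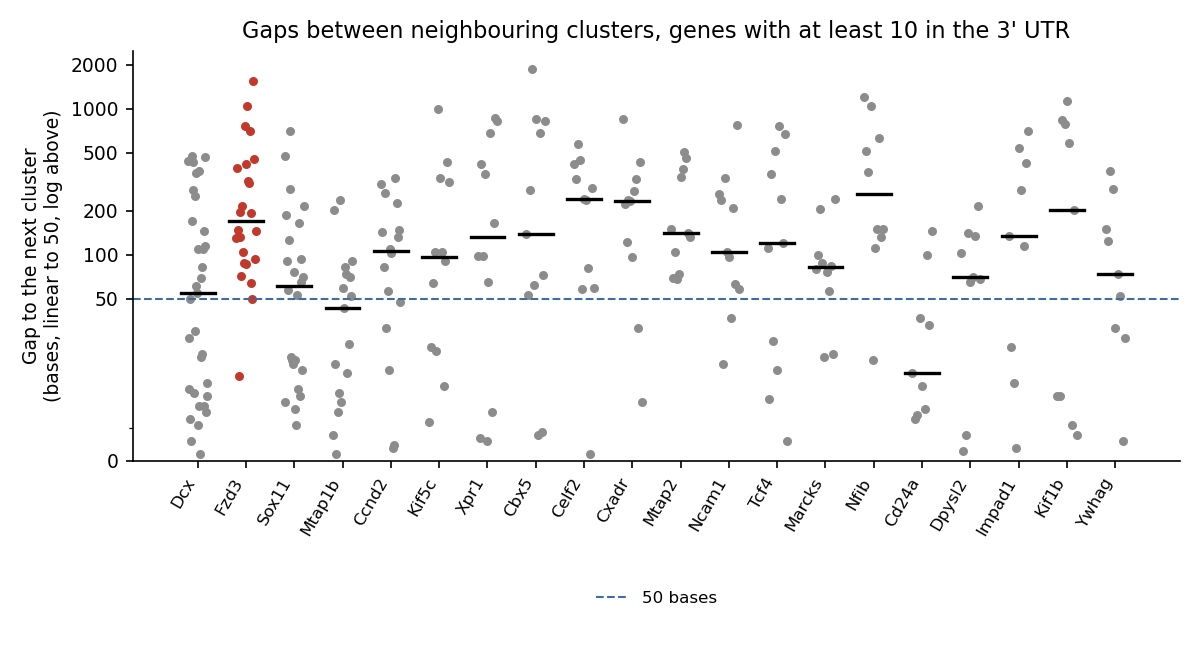
Each point is the gap in bases (linear to 50, log above) between 2 neighbouring clusters in the 3' UTR of 1 of the 20 genes with at least 10 clusters there, in order of their number; black bars are medians and the dashed line marks 50 bases. The gaps of Fzd3 (red) have a median of 171 and only 2 of them reach no further than 50 bases, where Dcx has 16.

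Among those 20 genes, the arrangement of clusters along the 3' UTR was compared by the share of clusters in each of 10 equal parts. The likeness measure was the summed absolute difference of these shares from those of Fzd3, where 0 means identical and larger values less alike. Most like Fzd3 was Kif5c, a gene of the kinesin motor that carries cargo along axons, with a difference of 0.523 over 13 clusters. Marcks, which encodes a membrane-bound actin regulator, followed with 0.596 (11 clusters) and the neural adhesion gene Ncam1 with 0.62 (12 clusters). The least alike was the transcription factor gene Nfib at 1.28. Kif5c also shared the maximum height of 55, in a 3' UTR of 3615 bases. With so few clusters per gene a single cluster moves a share considerably, so the order is a description of these lists.

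**Figure D4:**
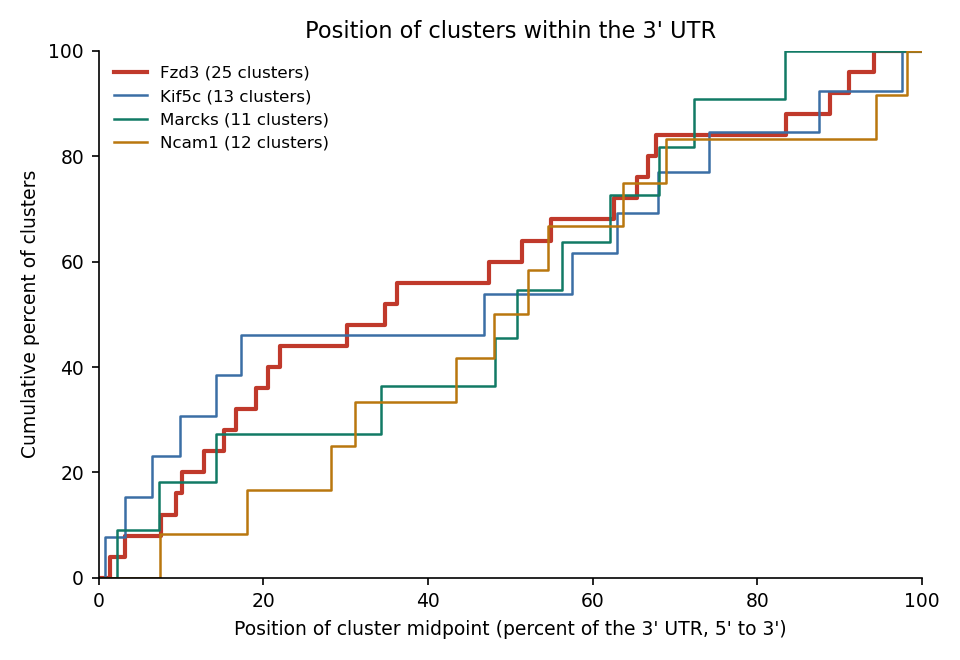
Lines give the cumulative percent of clusters (vertical axis) up to each position of the 3' UTR (percent of its length from the 5' end, horizontal axis) for Fzd3 and the 3 genes most like it by summed difference. Fzd3 (red, 25 clusters) rises steeply at the start, runs flat from 67.8% to 83.5% and ends at 94.2%.

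Within its own family Fzd3 was alone in the list. Of 11 genes, namely Fzd1 to Fzd10 and the related Smo, which transduces Hedgehog signals, Fzd3 was the single one with a cluster (1 of 11, 9.09%, exact 95% interval 0.230 to 41.3). Of all 21900 protein-coding genes, 3.47% were listed. The share of the family counts the gene that was chosen for its clusters, so it is no evidence about the family. Beside 3.47%, the absence of the other members does not set the family apart. Fzd6, the closest relative of Fzd3, was not listed. A gene that is not listed may have had clusters below the lowest deposited height of 18 or fold of 2, and levels of these transcripts were not measured here.

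Ligands and co-receptors of the pathway were also not listed. None of the 19 Wnt ligand genes had a cluster (upper 95% limit 17.6%), and neither had any of 13 co-receptor genes, such as Ryk, Ror2 and Lrp6 (upper limit 24.7%). Both limits include the 3.47% listed among all genes, so these counts do not set the lists apart. Of 25 genes for secreted inhibitors, Wnt secretion and Frizzled turnover, Sfrp1 was listed (4%, near the 3.47% of all genes). It encodes a secreted protein that binds Wnts, and had 2 clusters of heights 40 and 25.

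Core planar cell polarity genes, whose products act beside Frizzled-3 at the membrane, were not listed either. Celsr1 to Celsr3, Vangl1, Vangl2, the Prickle genes and the Dishevelled genes all lacked a cluster. This subset was named after its values were seen. Beside the 3.47% of all genes, an absence among so few genes does not set them apart. The list of 36 planar cell polarity genes nevertheless had 7 listed members (19.4%, exact 95% interval 8.19 to 36.0, beside 3.47% of all genes). They were mainly cytoplasmic effectors with 1 low cluster each. The small GTPase genes Cdc42 and Rac1, which control actin, had heights of 29 and 25. The kinase genes Mapk8, encoding JNK1, and Rock2 had 26 and 19, and the formin gene Daam1 had 20. Dact1, encoding a Dishevelled-binding protein, had the tallest cluster of this group at 34, with a fold of 11.4. The protocadherin gene Fat4 had 2, of 25 and 18. Only 1 of the 36 had a cluster taller than the list median (2.78%, beside 1.87% of all genes).

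Genes of the beta-catenin arm carried more and taller clusters. Of 27 genes, 6 were listed (22.2%, exact 95% interval 8.62 to 42.3), all with at least 2 clusters, beside 1.56% of all genes. Ctnnb1, which encodes beta-catenin, had 6 clusters of heights 86, 68, 66, 35, 31 and 22. Its top 3 clusters were taller than any of Fzd3. Gsk3b, the kinase that marks beta-catenin for destruction, had 8 clusters with a maximum of 39. The transcription factor gene Tcf7l2 had 4 (maximum 50), the kinase gene Csnk1a1 3 (48), the scaffold gene Apc 3 (43) and the tankyrase gene Tnks2 2 (37). Over all 131 genes of the Frizzled and Wnt lists, 15 were listed (11.5%, beside 3.47% of all genes), Fzd3 among them. With at least 2 clusters required, 9 were (6.87%, beside 1.56%), and with a cluster taller than the list median also 9 (beside 1.87%). The gene lists were chosen with earlier results of these data known, and transcript levels were not measured. These shares are therefore descriptions only.

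**Figure D5:**
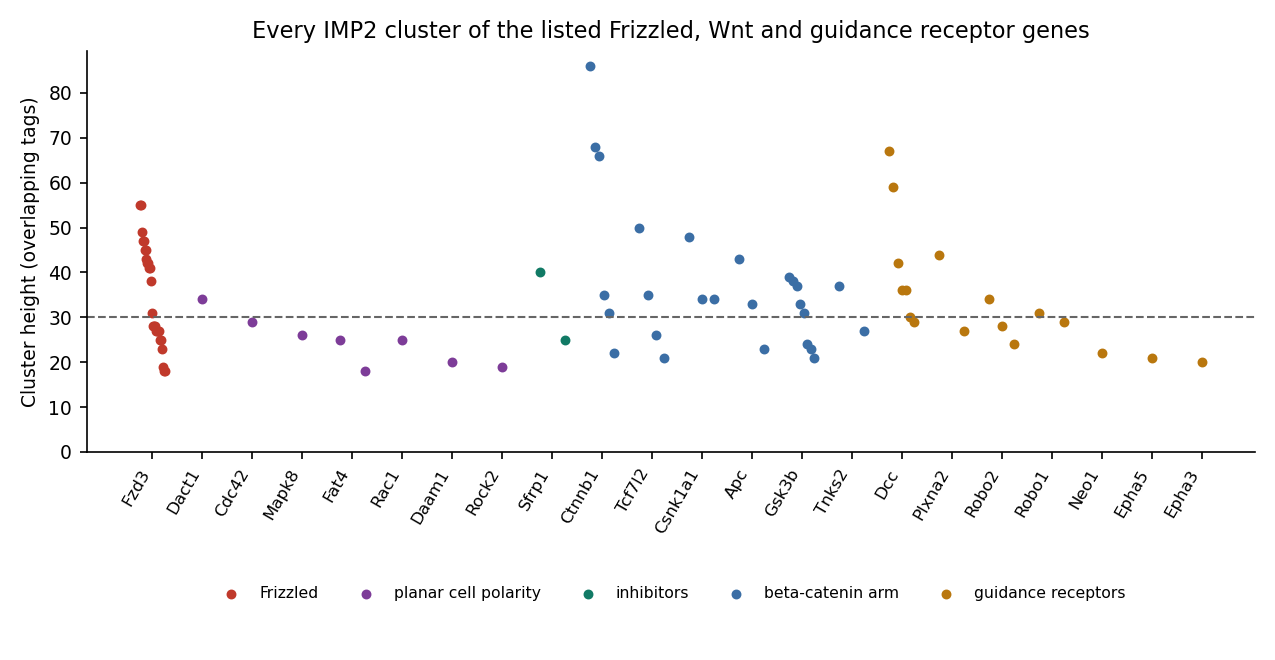
Every point is 1 cluster of a listed gene, coloured by gene list, with the cluster height (overlapping tags) on the vertical axis and the list median of 30 as a dashed line. Fzd3, coloured as Frizzled, has 27 points between 18 and 55, Ctnnb1 reaches 86, and the genes of the planar cell polarity list have 1 or 2 points of 18 to 34.

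Among 38 other receptor genes of axon guidance, 7 were listed (18.4%, beside 3.47% of all genes). The netrin receptor gene Dcc had 7 clusters with a maximum height of 67, above that of Fzd3, and Plxna2, a semaphorin receptor gene, had 2 (44). The Slit receptor genes Robo2 and Robo1 had 3 (34) and 2 (31). No other gene of this list had more than 1 cluster, so Fzd3 exceeded each of these receptors in number, which is the value it was chosen for. In 3' UTR coverage its 18.9% stood above 14.3% in Dcc and 13.8% in Robo1.

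Among the marker lists, that of neurons had the largest listed share (66.7%). Red blood cell and meningeal markers (37.5% each) stood above progenitor markers (25%). These lists were chosen with earlier results of these data known. Marker counts are read beside the 3.47% listed among all genes. Of 12 neuronal markers, 8 were listed, led by Dcx and Stmn2 (85 each), and Tubb3, Neurod1, Neurod2 and Elavl4 were absent. Of 12 progenitor markers, 3 were listed (Ccnd2, Vim and Top2a), while Sox2, Nes, Pax6, Hes1, Hes5, Fabp7, Slc1a3, Eomes and Mki67 were absent. Markers of red blood cells (3 of 8), meninges (3 of 8), choroid plexus (1 of 6) and vessels (1 of 8) were present too, and none of 8 microglial markers was. Tall clusters were not limited to neuronal markers. The choroid plexus marker Ttr reached 88, above both neuronal leaders, and the progenitor marker Ccnd2 reached 77. The highest cluster was 47 among vessel markers (Rgs5), 37 among meningeal ones (Zic1) and 27 among those of red blood cells. Of these last markers, Hba-a1 and Hba-a2 share 1 cluster. In lists this short, a single gene makes a large share, 16.7% for choroid plexus (exact 95% interval 0.421 to 64.1) and 12.5% for vessels (0.316 to 52.7). Both intervals, and the upper limit of 36.9% for microglia, include the 3.47% of all genes. The part of these cell types in the clusters of Fzd3 was not tested.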

How the data were processed

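HITS-CLIP for IMP2 was represented by 1 deposited list of 2865 lines for all 4 libraries. Bowtie, FastQC and mm9 are named per the submitters' processing notes, without versions. For the peak caller, its thresholds and any pooling of libraries, no source used here gives a name or value. Per the file headers, the deposited cluster height is a signal value, and it holds whole numbers. The other deposited value, per the file headers, is a fold of it, a ratio with an undefined reference level. Both are the authors' values for a cluster. Tags per library and PCR duplicates are not given, so the depth is unknown.

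Lines were reduced to distinct clusters by position and strand, and starts were made 1-based. Regions were assigned by midpoint. Accessions (1088 of 1099 matched) were named through a RefSeq table of GRCm38 with 21900 protein-coding genes; no coordinate was taken from it. Python 3.11.15 and pandas 2.3.3 were used, and the scripts were tested on simulated data. Genes named were Fzd3, listed members of the gene lists (of guidance receptors the 4 with the highest cluster), neighbours by number of clusters and by 3' UTR length (up to 5 on each side, 1 of which is not reported here), and the 3 genes most alike; unlisted family members, Cbx5, Nfib, Xpr1, Celf2, Cxadr, Kif1b, Mtap2 and markers were named after their values were seen. Members and lists were chosen with earlier results of these data known. No sequence is shown, since no mm9 genome was used here.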

Additional observations from a re-analysis of the deposited data

How the results depend on the processing

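The alternatives changed which clusters or genes were counted. Joining touching clusters left the number, median height, mean midpoint, coverage, density and rank of Fzd3 as they were. The shortest 3' UTR interval, tried for coverage, and both other rules for the region, tried for the share in the 3' UTR, gave the same values. With clusters at most 50 bases apart joined, Fzd3 had 25 clusters, a mean midpoint of 40.7% and a coverage of 19.7%. With only clusters taller than the list median, Fzd3 had 14 clusters with a median height of 44. With only clusters of a fold above the list median, it had 15 with a median height of 43. Both counts include the coding-sequence cluster of height 38 and fold 6.15. The clusters of the 3' UTR alone gave 1.26 per kilobase, a mean midpoint of 49.8% and a coverage of 12.1% under the height rule. Under the fold rule they gave 1.36 per kilobase, 46.5% and 12.2%. The falls in number, density and coverage follow from counting fewer clusters. Under the height rule, the rise in median height follows from keeping only the taller ones. The mean midpoint rose because the clusters left out lay on average nearer the stop codon. The rank of Fzd3 by number, an alternative added after the data were examined, was 2 as reported, 1 with clusters joined at 50 bases, 4 with taller clusters and 1 with higher folds. Above the upper quartile of the list stood 12 of 27 clusters by height (44.4%, beside 23.4% of the list). By fold it was 9 of 27, where an upper quartile leaves about 25% of the list above it by definition. Of the Frizzled and Wnt genes, 9 in place of 15 were listed with at least 2 clusters, and likewise 9 with a cluster taller than the list median.

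No paired analysis was possible because no column of the list holds values of a single library; for the same reason no library was left out. Depth is unknown, and clusters under the deposited minimum were not analysed here.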

Other observations

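Dividing each height by its fold gives the reference level implied by the authors' ratio. Over the 27 clusters of Fzd3 this level had a median of 5.94, beside 5.96 for the whole list, and ran from 3.6 to 8.45. It was not constant along the transcript. The 4 lowest levels among the 3' UTR clusters, 3.6, 4.21, 4.25 and 4.69, all lay between 2095 and 3766 bases from the stop codon, a stretch that also held the cluster of height 43 with a level of 6.02. The highest level, 8.45, lay just upstream, at the cluster of height 42 that began 1948 bases from the stop codon. Clusters of equal height can therefore differ in fold: of the 4 clusters of height 27 in the 3' UTR, the folds were 3.71, 4.5, 7.5 and 4.76.

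Both clusters of height 55 had almost the same fold (9.22 and 9.34), with 3 other clusters between them.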
